A study of Mus musculus with 10 samples.

Results

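The endoplasmic reticulum stress genes described here are 9 genes of the unfolded protein response, chosen by name with earlier results of these data known, out of 32285 genes in a count table of mouse blood leukocyte RNA. They are Hspa5, Hsp90b1, Calr, Pdia4, Herpud1, Sdf2l1, Dnajb9, Xbp1 and Atf4, and all 9 were found in the table and counted in all 10 libraries. All animals were C57/BL6J mice, and each library held the pooled RNA of 3 mice. Sleep deprivation (SD) was sampled at 6, 12, 24 and 48 h, the sleep restriction method that the labels call SASD at 6, 12, 24, 48 and 120 h, and control mice (Con) at 0 h, with 1 library per group. How either method was carried out, the age of the mice and the time of day at sampling are not stated in the labels, and all groups shared pentobarbital anaesthesia before bleeding.

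When proteins fold badly in the endoplasmic reticulum, 3 sensors in its membrane (IRE1, PERK and ATF6) start the unfolded protein response. IRE1 splices the mRNA of Xbp1 into the form that encodes an active transcription factor, PERK slows translation and so favours translation of Atf4, and ATF6 is cut to release a factor that binds promoters of chaperone genes. In blood the pathway is best known from antibody-secreting plasma cells, which need XBP1, and it also operates in myeloid cells. Gene counts add the spliced and unspliced forms of Xbp1 together and do not record translation, so they show mRNA amount only.

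The promoters of 4 of the 9 genes held a full endoplasmic reticulum stress element in the RefSeq window searched, which ran from 250 bases before to 50 bases after the start site (GRCm38.p6, 32817 windows). The element ERSE was searched on both strands as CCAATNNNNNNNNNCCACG and was found in 0.119% of all windows and in 3 of the 9 genes, Hspa5, Hsp90b1 and Calr. The related ERSE-II, searched as ATTGGNCCACG, was in 0.0366% of windows and in 1 of the 9, Herpud1. The shorter UPRE core TGACGTGG was in 0.676% of windows and in 0 of the 9. The 5-base pieces CCACG and CCAAT, which overlap the longer elements, were in 32.8% and 37.4% of windows and each in 8 of the 9 genes, Xbp1 being the exception both times. The elements and the 9 genes were both picked as known parts of this pathway, so these counts are no test of enrichment. A match describes letters only, and its absence says only that these letters are not in this window. Bases before the start site are given for the 4 genes with an element and for Xbp1, the gene whose level differed most between the methods, with the elements in capitals.
Hspa5, chr2:34771840-34772089, plus strand: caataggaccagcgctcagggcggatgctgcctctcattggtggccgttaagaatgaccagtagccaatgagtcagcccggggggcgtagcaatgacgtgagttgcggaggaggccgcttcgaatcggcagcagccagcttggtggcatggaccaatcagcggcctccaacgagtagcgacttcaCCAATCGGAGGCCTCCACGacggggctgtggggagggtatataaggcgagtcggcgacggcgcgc
Hsp90b1, chr10:86705445-86705694, minus strand: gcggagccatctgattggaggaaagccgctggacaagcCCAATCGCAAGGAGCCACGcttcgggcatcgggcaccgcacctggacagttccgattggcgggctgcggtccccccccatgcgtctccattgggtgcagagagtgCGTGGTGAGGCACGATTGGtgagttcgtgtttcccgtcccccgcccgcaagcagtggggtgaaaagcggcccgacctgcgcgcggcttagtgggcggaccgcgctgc
Calr, chr8:84846932-84847181, minus strand: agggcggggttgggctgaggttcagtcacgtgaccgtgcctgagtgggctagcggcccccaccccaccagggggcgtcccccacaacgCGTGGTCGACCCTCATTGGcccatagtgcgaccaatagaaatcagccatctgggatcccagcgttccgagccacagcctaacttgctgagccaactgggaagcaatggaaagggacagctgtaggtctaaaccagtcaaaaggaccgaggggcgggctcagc
Herpud1, chr8:94386179-94386428, plus strand: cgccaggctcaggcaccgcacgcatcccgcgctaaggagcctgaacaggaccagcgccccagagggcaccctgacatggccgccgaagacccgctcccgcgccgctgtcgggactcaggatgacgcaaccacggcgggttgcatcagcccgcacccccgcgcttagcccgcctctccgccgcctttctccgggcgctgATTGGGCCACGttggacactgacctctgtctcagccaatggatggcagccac
Xbp1, chr11:5520391-5520640, plus strand: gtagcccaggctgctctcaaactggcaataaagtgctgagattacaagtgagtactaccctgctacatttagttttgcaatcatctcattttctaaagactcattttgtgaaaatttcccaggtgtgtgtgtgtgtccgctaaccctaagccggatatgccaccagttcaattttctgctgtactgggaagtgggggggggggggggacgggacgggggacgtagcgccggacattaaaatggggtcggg
The ERSE began 65 bases before the start site in Hspa5. Hsp90b1 held 2 copies, at 212 bases before it on the gene's strand and at 107 bases before it on the opposite strand. In Calr the element lay on the opposite strand at 162 bases before the start site, and the ERSE-II of Herpud1 began at 52 bases before it.

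The libraries held 7825120 to 27501393 read pairs assigned to genes, and the counts per member ranged from 64 for Sdf2l1 to 13344 for Hsp90b1. Levels are given as CPM, counts scaled to library size with the trimmed-mean (TMM) factor of edgeR, or, between genes, also per kilobase of exon (RPKM). Con, SD 48 h and SASD 48 h stood apart from the other 7 libraries: haemoglobin genes took 0.275% to 0.727% of their counts against 3.57% to 6.96%, and 19.8% to 53.1% of 1134 olfactory receptor genes were detected at equal depth against 2.38% to 4.32%. Markers of B cells, T cells, NK cells, monocytes, mature neutrophils, platelets and red cells were all counted in every library. Of 10 markers of neutrophil precursors and granules, at least 6 were counted in each. The blood label was thus met by a mixture rather than by 1 cell type. In such a mixture, fewer cells of a type and less RNA per cell cannot be told apart. Nothing in the labels says that libraries are replicates of each other, so a fitted p-value below measures the spread between single pooled libraries.

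Ranked by median RPKM over the 10 libraries, Calr came first at 129, followed by Hsp90b1 at 88.3, Hspa5 at 70.6, Atf4 at 58.3, Pdia4 at 50.8, Herpud1 at 40.2, Xbp1 at 32.0, Dnajb9 at 12.2 and Sdf2l1 at 9.41. The ranges of neighbours in this order overlapped in every case but 1: the lowest Xbp1 level, 20.3 RPKM, was above the highest Dnajb9 level, 13.5 RPKM. Together the 9 genes summed to 1217 CPM in SASD 12 h, the lowest total, and to 1851 CPM in SASD 120 h, the highest. Hspa5, Hsp90b1 and Calr made up 57.6% of the sum in SD 12 h, the lowest share, and 72.4% in SASD 48 h, the highest.

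The major chaperones had the same shape under both methods, low at 6 and 12 h and higher from 24 h on. Hspa5 (ENSMUSG00000026864, chr2:34771970-34777547, plus strand, protein-coding) encodes BiP, the main HSP70 chaperone of the endoplasmic reticulum and the protein that holds the 3 sensors inactive. It stood at 272 CPM in Con, at 255, 241, 383 and 331 CPM in SD at 6, 12, 24 and 48 h, and at 242, 219, 324, 367 and 363 CPM in SASD at 6, 12, 24, 48 and 120 h. All 4 libraries of 6 and 12 h were below Con, and all 5 of 24 h and later were above it, except that with total counts as the scale SASD 24 h was at 0.835 of Con. That scale lowers the log2 ratios over Con of all genes by 0.06 to 0.51, and so bears on each direction against Con. Hsp90b1 (ENSMUSG00000020048, chr10:86690209-86705509, minus strand) encodes GRP94, an HSP90-type chaperone that folds Toll-like receptors and integrins. Its levels were 366 CPM in Con, 298, 236, 398 and 367 CPM in the 4 SD libraries in order of time, and 244, 251, 346, 470 and 464 CPM in the 5 SASD libraries. SASD 48 h was the highest and SD 12 h the lowest, 1.99-fold apart. This gene shared 2.08% of its exon bases with an overlapping gene on the same strand, Gm15344, and had a 273-base stretch at or above 95% identity with 1810014B01Rik, so part of its reads may not have been counted.

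Calr (ENSMUSG00000003814, chr8:84841850-84846934, minus strand) encodes calreticulin, a calcium-binding lectin chaperone for glycoproteins. It was measured at 357 CPM in Con, at 343, 273, 420 and 388 CPM in SD and at 309, 276, 412, 458 and 465 CPM in SASD, again below Con at 6 and 12 h and above it in all 5 later libraries. With total counts as the scale the later libraries of SD 24 h, SD 48 h and SASD 24 h were at 0.943, 0.955 and 0.808 of Con. Sdf2l1 (ENSMUSG00000022769, chr16:17130138-17132383, minus strand), a small luminal protein that works with BiP and its DnaJ partners, had the widest relative range among the chaperones. It gave 10.6 CPM in Con, 9.07, 9.17, 23.1 and 15.3 CPM in SD, and 6.85, 6.95, 10.3, 15.8 and 19.5 CPM in SASD. SD 24 h was 3.37-fold above SASD 6 h, and the counts behind these values were 64 to 450.

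Pdia4, Herpud1 and Dnajb9 stayed within a narrow band. Pdia4 (ENSMUSG00000025823, chr6:47796141-47813430, minus strand) encodes the protein disulfide isomerase ERp72. It read 133 CPM in Con, 119, 106, 126 and 124 CPM in SD and 109, 119, 115, 137 and 132 CPM in SASD, a 1.29-fold range. Dnajb9 (ENSMUSG00000014905, chr12:44205559-44210326, minus strand), a DnaJ co-chaperone of BiP also called ERdj4, read 24.9 CPM in Con, 31.1, 34.4, 31.2 and 33.5 CPM in SD and 28.0, 29.1, 25.7, 31.6 and 33.4 CPM in SASD. All 9 other libraries were above Con, but with total counts as the scale SASD 6 h, 12 h and 24 h were below it. SD was above SASD at each of the 4 shared times, by 1.06-fold to 1.21-fold, an order that turned at 48 h with total counts. Herpud1 (ENSMUSG00000031770, chr8:94386438-94395377, plus strand), a membrane protein of the ubiquitin ligase complex that removes misfolded proteins, read 94.2 CPM in Con, 86.3, 103, 93.5 and 113 CPM in SD and 80.2, 99.9, 86.3, 92.8 and 105 CPM in SASD. Under both methods it was higher at 12 h than at 6 and 24 h, as was Dnajb9 by a smaller margin.

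Xbp1 (ENSMUSG00000020484, chr11:5520659-5525893, plus strand), the transcription factor activated by IRE1, had the largest ratio between the methods. It stood at 65.9 CPM in Con, its lowest value, and at 87.2, 157, 231 and 124 CPM in SD at 6, 12, 24 and 48 h. In SASD it stood at 86.9, 74.3, 99.9, 108 and 117 CPM at 6, 12, 24, 48 and 120 h. SD 12 h and SD 24 h were above all 5 SASD libraries, SD 48 h was above them by a smaller margin, and the 6 h libraries had equal counts. The SD 24 h library was 3.50-fold over Con, with a 95% counting interval of 3.30 to 3.71. The 5 SASD libraries were 1.13-fold to 1.77-fold over Con. With total counts as the scale, SD 24 h was 2.81-fold over Con and SASD 12 h at 0.911 of it. Of the 9 genes, Xbp1 was at least 2-fold over Con in SD 12 h (background 6.42%), and Xbp1 and Sdf2l1 were in SD 24 h (6.57%). With total counts, Xbp1 in SD 12 h was 1.90-fold and Sdf2l1 in SD 24 h 1.75-fold over Con. In SD 6 h and SD 48 h 0 of 9 were (3.70% and 4.42%), and likewise in SASD at 6, 12, 24, 48 and 120 h (5.96%, 4.28%, 7.89%, 1.48% and 2.44%). These intervals are exact binomial ones (Clopper-Pearson), cover counting error only and hold no replicate check.

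Atf4 (ENSMUSG00000042406, chr15:80255184-80257541, plus strand), the transcription factor of the PERK branch, followed neither pattern. It read 111 CPM in Con, 125, 143, 133 and 115 CPM in SD and 148, 142, 143, 110 and 153 CPM in SASD. Its 3 lowest values, 110 to 115 CPM, were those of the haemoglobin-poor libraries, and the other 7 read 125 to 153 CPM with no overlap. Of 12032 genes considered for this split, 10.3% were higher in the 7 haemoglobin-rich libraries with no overlap, so a count of 1 in 9 is near the background. With total counts as the scale the sets overlapped. What part the haemoglobin share has in the Atf4 difference was not tested.

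**Figure D1:**
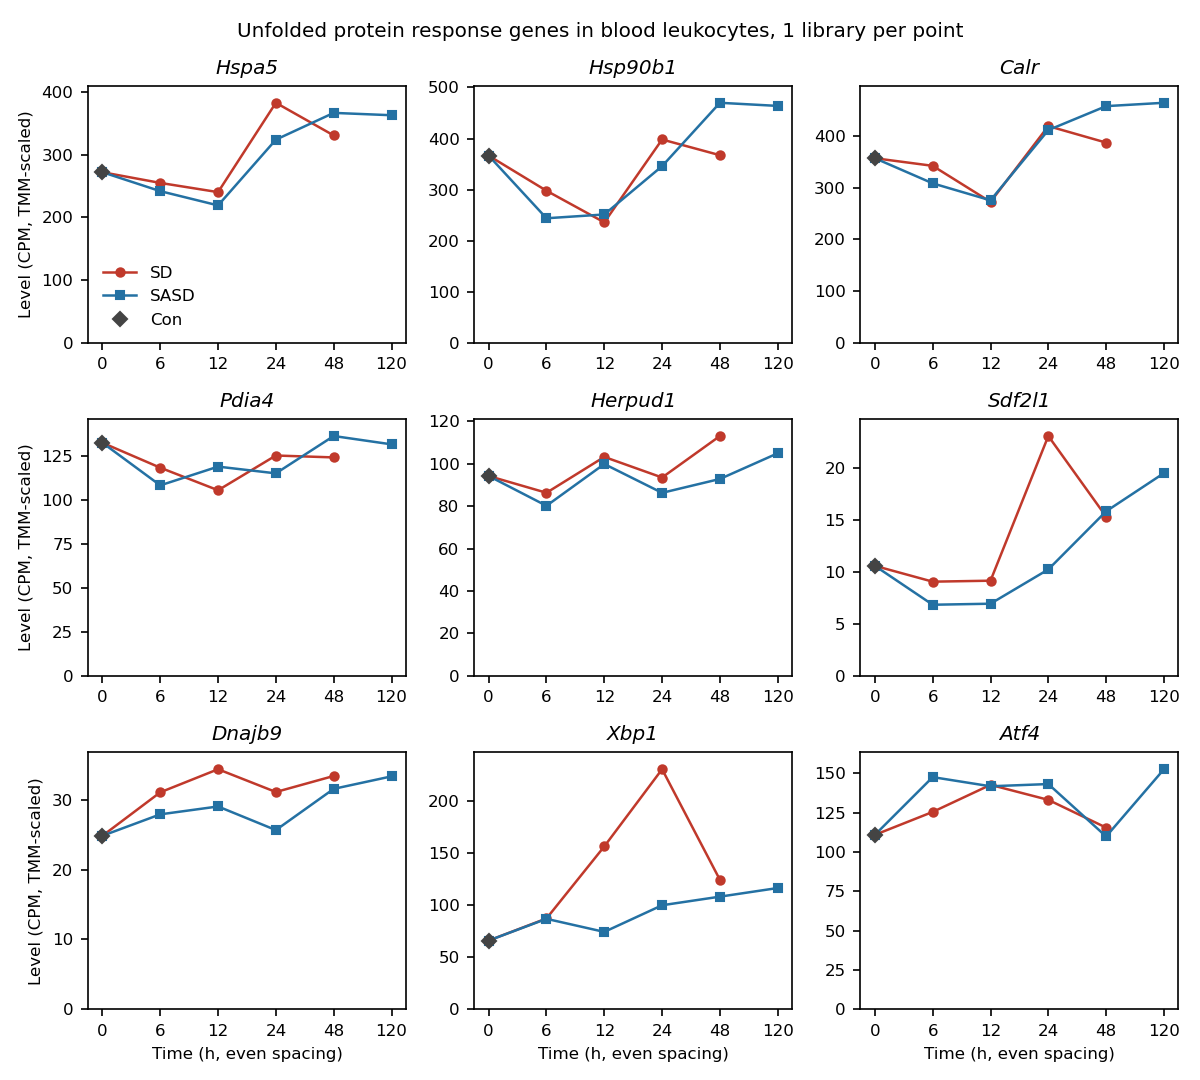
Level of each of the 9 genes in every library (y axis, CPM with trimmed-mean scaling, from 0; x axis, hours with even spacing); red circles are SD, blue squares SASD, and the grey diamond is Con at 0 h, 1 library of 3 pooled mice per point. Hspa5, Hsp90b1, Calr and Sdf2l1 are lowest at 6 and 12 h under both methods, Xbp1 peaks at 231 CPM in SD 24 h, and Pdia4 stays between 106 and 137 CPM.

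The comparison of SD with SASD at the same hour asks which genes depend on the method of keeping mice awake. At 6 h none of the 9 genes reached a 2-fold ratio (background 0.104% of 11537 genes at or above 2-fold higher and 0.901% lower). Xbp1 had 913 counts in each 6 h library, with a ratio interval of 0.915 to 1.10. At 12 h Xbp1 was 2.11-fold higher in SD (1.93 to 2.31), the only 1 of the 9 past 2-fold, where 2.83% of 11295 genes were that much higher and 0.0974% that much lower. At 24 h Xbp1 was 2.31-fold higher in SD (2.12 to 2.52) and Sdf2l1 2.25-fold higher (1.71 to 3.00), 2 of 9 genes against a background of 3.88% of 11135 genes, and 0 of 9 were 2-fold lower (3.20%). At 48 h Xbp1 was 1.15-fold higher in SD (1.08 to 1.22), and 0 of 9 genes passed 2-fold (background 4.14% higher and 1.63% lower).

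The ratios of the folding genes at 12 h were smaller than that of Xbp1. There the SD over SASD ratio was 1.10 for Hspa5 (1.03 to 1.16), 0.938 for Hsp90b1 (0.886 to 0.994), 0.989 for Calr (0.937 to 1.04) and 0.887 for Pdia4 (0.814 to 0.966). It was 1.32 for Sdf2l1 (0.948 to 1.85) and 1.18 for Dnajb9 (1.01 to 1.39), on the side of Xbp1. At 48 h the ratio was 0.902 for Hspa5, 0.781 for Hsp90b1 and 0.846 for Calr, each with an interval below 1, so that of these 3 genes Hspa5 had the opposite order at 12 and 48 h. Herpud1 was 1.22-fold higher in SD at 48 h (1.14 to 1.30). The SD over SASD ratio of Atf4 ranged from 0.850 at 6 h (0.789 to 0.915) to 1.05 at 48 h (0.990 to 1.12). Scaling by total counts instead shifts the log2 ratio of every gene at 24 h by 0.19 and at 48 h by -0.13. With it the 24 h ratios were 2.64 for Xbp1 and 2.58 for Sdf2l1.

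**Figure D2:**
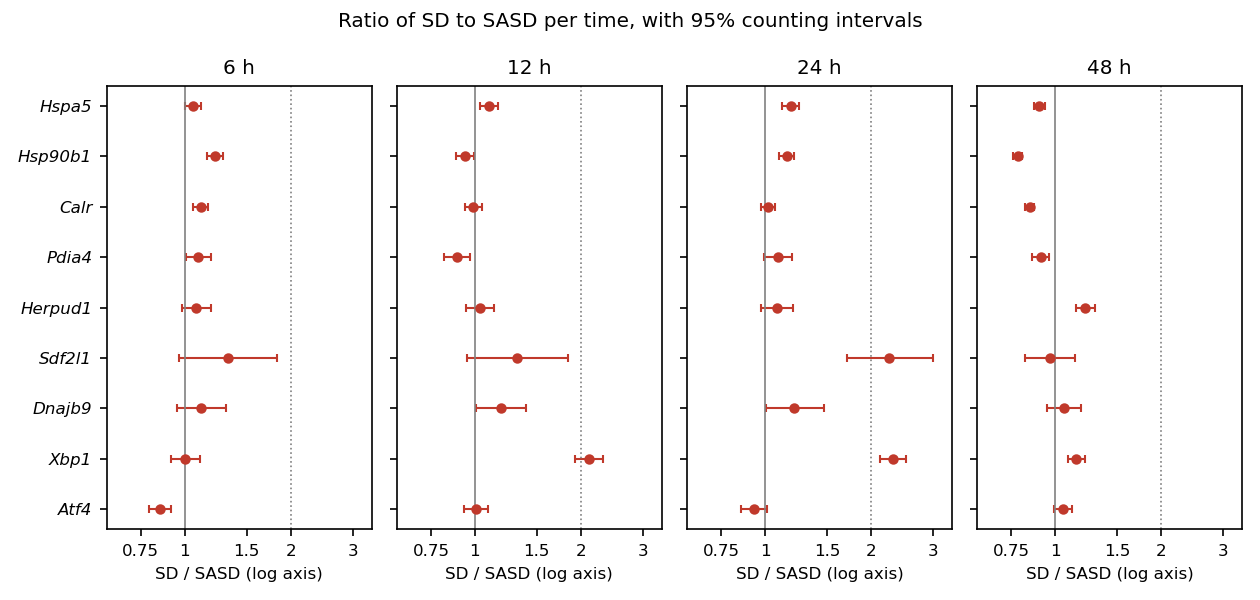
Ratio of SD to SASD for each gene (rows) at 6, 12, 24 and 48 h (panels) on a log axis; points are ratios of CPM between 2 single libraries, bars are 95% counting intervals, the solid line marks 1 and the dotted line 2. Xbp1 lies beyond 2 at 12 h (2.11) and 24 h (2.31), Sdf2l1 at 24 h (2.25), and no gene does at 6 or 48 h.

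With the 4 shared times as the only replication, no member passed the threshold. In edgeR's quasi-likelihood test with time as a block, 0 of the 9 genes were called at an adjusted p under 0.05 (background 0.00% of 13370 genes). At an unadjusted p under 0.05 there was 1 of 9 (background 8.09%), and DESeq2 and limma-voom also called 0 of the 9. Xbp1 was higher in SD by 0.61 ± 0.21 on the log2 scale (SE, 8 libraries), higher or equal in 4 of 4 pairs, with an adjusted p of 0.514. Sdf2l1 was higher by 0.45 ± 0.20 (SE, adjusted p = 0.641, higher in 3 of 4 pairs), by 0.21 without 24 h and by 0.68 without 48 h. For the other 7 genes the difference lay between -0.07 for Atf4 and 0.18 for Dnajb9. The median over the 9 genes was 0.06 and over all genes tested 0.00, with 6 of 9 estimates above 0 (background 49.2%). Without the minimum mean count of 10, Xbp1 passed with an adjusted p of 0.0132, 1 of 9 genes where 1.43% of all genes passed.

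The time courses against Con ask whether levels changed with hours of sleep loss, as a slope per doubling of 1 + hours / 6. Under SD, 0 of 9 genes were called by edgeR (background 0.124% of 14562 genes), 0 of 9 had an unadjusted p under 0.05, and 8 of 9 slopes were above 0 (background 46.3%). The steepest was Xbp1 at 0.45 ± 0.20 (SE, 5 libraries, adjusted p = 0.509), followed by Sdf2l1 at 0.29 ± 0.16. The slope of Xbp1 depended on single libraries: it was 0.27 without Con and 0.30 without SD 24 h, and without SD 48 h it was 0.79 ± 0.10 and passed with an adjusted p of 0.0331, where 3.45% of all genes were called. The slope of Sdf2l1 was 0.49 without Con and 0.18 without SD 24 h. Under SASD, 0 of 9 were called (background 0.00% of 14602 genes) and all 9 slopes were above 0 (background 46.7%), or 6 of 9 without SASD 120 h. At an unadjusted p under 0.05 there were 2 of 9, Xbp1 and Sdf2l1 (background 3.03%). Their SASD slopes were 0.17 ± 0.05 for Xbp1 (SE, edgeR, unadjusted p = 0.00772, adjusted p = 0.99994) and 0.26 ± 0.10 for Sdf2l1, whose slope was 0.48 without Con.

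The difference of the slopes, SD minus SASD over 0 to 48 h with Con shared, was tested by itself. It called 0 of 9 genes (edgeR, background 0.410% of 14138 genes), and 1 of 9, Xbp1, had an unadjusted p under 0.05 (background 7.58%). The difference was above 0 for 5 of 9 genes (background 46.4%), and for 8 of 9 without SASD 48 h. For Xbp1 it was 0.31 ± 0.12 (SE, 9 libraries, adjusted p = 0.542), 0.51 ± 0.08 without SD 48 h (adjusted p = 0.0802) and 0.17 without SD 24 h (adjusted p = 0.9919). DESeq2 and limma-voom called 0 of the 9 in these 3 comparisons.

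**Figure D3:**
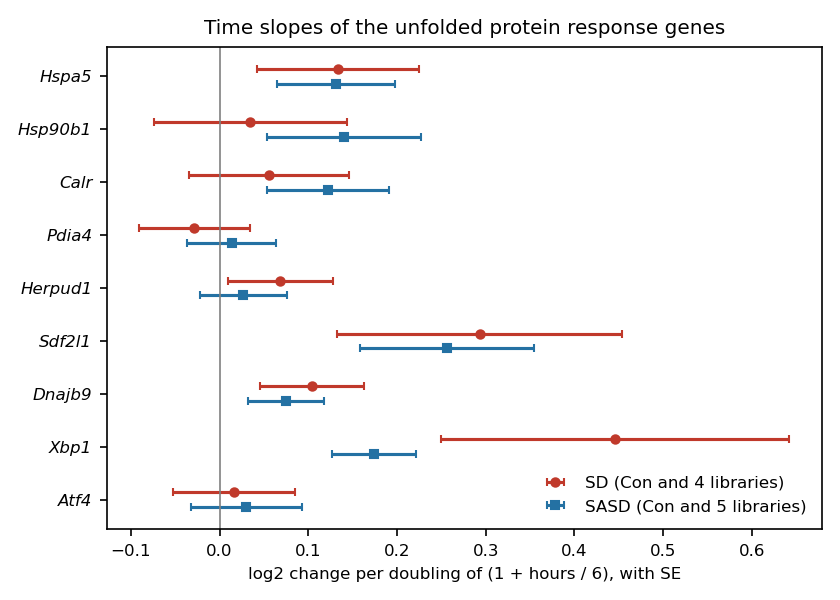
Slope of each gene (x axis, log2 change per doubling of 1 + hours / 6, with SE from edgeR) under SD (red circles, Con and 4 libraries) and SASD (blue squares, Con and 5 libraries); both slopes share the Con library. The SD slope of Xbp1, 0.45, and both slopes of Sdf2l1, 0.29 and 0.26, lie farthest from 0, and the slopes of Pdia4 and Atf4 lie within 1 SE of it.

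Whether levels differed between 6, 12, 24 and 48 h in both methods together was tested with method as a block. The test called 0 of 9 genes in edgeR (background 1.02% of 13370 genes), and 4 of 9 had an unadjusted p under 0.05, Hspa5, Hsp90b1, Calr and Sdf2l1 (background 18.4%). Their adjusted p-values were 0.146 to 0.180. DESeq2 called the same 4 genes, where 7.23% of all genes passed, and limma-voom called 0. Without a count minimum, edgeR called Hspa5, Hsp90b1 and Sdf2l1, where 6.95% passed. Averaged over the methods, Hspa5 stood at 249, 230, 354 and 349 CPM at 6, 12, 24 and 48 h, Hsp90b1 at 271, 243, 372 and 419 CPM, and Sdf2l1 at 7.96, 8.06, 16.7 and 15.6 CPM.

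The shape was also seen without the haemoglobin-poor libraries, a split made after the values were seen and given with no test. In the 7 haemoglobin-rich libraries, the 3 of 24 and 120 h read 324 to 383 CPM for Hspa5 and the 4 of 6 and 12 h read 219 to 255 CPM. For Hsp90b1 these sets read 346 to 464 CPM at the later hours and 236 to 298 CPM at the earlier ones, for Calr 412 to 465 CPM and 273 to 343 CPM. These genes and Sdf2l1 were higher at the later hours with no overlap, 4 of 9 where 4.88% of 11363 genes were, and 0 of 9 were lower (2.88%). Since the cut was drawn from the shape of these same values, it favours such a count, which is therefore no separate support for the shape. With total counts as the scale Hspa5, Hsp90b1 and Calr did not overlap and Sdf2l1 did. Within the haemoglobin-poor set, SD 48 h and SASD 48 h were above Con for Hspa5, Calr and Sdf2l1 (for Calr in SD 48 h not with total counts). Hsp90b1 read 470 CPM in SASD 48 h, 367 CPM in SD 48 h and 366 CPM in Con. With total counts its SD 48 h level was at 0.883 of Con.

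The 12 h libraries were also set against the mean of 6 and 24 h within each method. The test called 0 of 9 genes in edgeR (background 0.00% of 12841 genes), with 0 in DESeq2 and limma-voom. At an unadjusted p under 0.05 there were 2 of 9 (background 3.60%), Calr at -0.42 ± 0.16 and Herpud1 at 0.24 ± 0.10 on the log2 scale (SE, 6 libraries, adjusted p = 0.99856 for both). Hspa5 at -0.38 ± 0.19 and Hsp90b1 at -0.38 ± 0.19 lay on the side of Calr, with ranges of -0.49 to -0.245 and -0.58 to -0.22 when each library was left out, and 3 of 9 estimates were above 0 (background 52.1%).

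Around these 9 genes, 6 lists covered the rest of the pathway and its neighbours, and of their 123 genes a single one was called by edgeR in the 6 comparisons. Over all genes tested 0.00% to 1.02% were called per comparison, so 1 call among the lists is near the background. The lists were not counted under the other tools and settings. Between SD and SASD, edgeR called 0 genes in each list (background 0.00%). At an unadjusted p under 0.05 the background was 8.09% of 13370 genes. The lists had 1 of 12 sensors and transducers, 0 of 26 chaperones and folding enzymes and 0 of 20 degradation genes at that threshold. They also had 3 of 21 import and transport genes, 5 of 23 targets of the integrated stress response and 0 of 18 genes listed as cytosolic heat shock chaperones. Ern1, which encodes the sensor IRE1, read 37.2 CPM in Con, 32.3, 35.6, 59.4 and 48.3 CPM in SD and 31.9, 27.1, 35.8, 64.6 and 36.3 CPM in SASD. Its highest values were those of SASD 48 h and SD 24 h. Pdia6, a disulfide isomerase that attenuates IRE1, had the shape of the chaperones, with 89.2 CPM in Con, 73.0, 62.5, 111 and 97.3 CPM in SD and 68.1, 64.9, 94.0, 103 and 118 CPM in SASD. Its adjusted p for time was 0.0865 in edgeR.

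The gene that passed was Sec61g, a subunit of the channel through which proteins enter the endoplasmic reticulum, in the test for time (edgeR, adjusted p = 0.0313, background 1.02% of 13370 genes). It read 15.4 CPM in Con, 20.9 CPM in SD 48 h and 17.2 CPM in SASD 48 h, against 41.3 to 73.1 CPM in the 7 haemoglobin-rich libraries. The values thus fell into the haemoglobin sets, whose part in the result was not tested. No member of the pathway list of chaperones other than the 9 reached 2-fold between SD and SASD at any hour, with 25 or 26 measured. The background over these hours was 0.104% to 4.14% higher and 0.0974% to 3.20% lower.

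Among targets of the integrated stress response, the list that ATF4 and its relatives act on, 4 of 21 were at least 2-fold higher in SD than in SASD at 12 h, 3 of 21 at 24 h and 3 of 21 at 48 h (background 2.83%, 3.88% and 4.14%). They were Atf3, Sesn2, Slc7a11 and Cebpb at 12 h, Atf3, Nupr1 and Cebpb at 24 h, and Sesn2, Slc7a11 and Ddit4 at 48 h. At 6 h 0 of 21 were 2-fold higher (0.104%) and 1, Chac1, was 2-fold lower (0.901%). Atf3, Nupr1 and Chac1 are named after their values were seen. Over the shared times together the list leaned little to SD: 13 of 23 tested targets had an SD minus SASD estimate above 0 (background 49.2%). The median estimate was 0.03 for the list and -0.003 for all genes. Slc7a5 was lower in SD at 24 h, at 124 CPM against 235 CPM in SASD, and higher in SD at 48 h, at 38.3 against 21.9 CPM. Cebpb, a transcription factor of myeloid cells, read 27.0 CPM in Con, 88.9, 208, 241 and 96.1 CPM in SD and 79.1, 90.9, 66.4, 62.1 and 115 CPM in SASD. Its SD minus SASD difference was 0.95 ± 0.25 on the log2 scale (SE, edgeR, adjusted p = 0.356). Sesn2, a stress-induced inhibitor of mTORC1 signalling, read 15.3 CPM in Con, 22.9, 38.1, 45.7 and 35.0 CPM in SD and 22.0, 17.5, 24.5, 15.5 and 20.7 CPM in SASD. Both genes, like Xbp1, were near equal between the methods at 6 h and highest in SD 24 h. Ddit4, another inhibitor of mTORC1 that also responds to glucocorticoids, was high at 12 h under both methods, at 166 CPM in SD and 154 CPM in SASD, against 54.6 and 74.8 CPM at 6 and 24 h in SD and 58.6 and 45.4 CPM in SASD. At 48 h it read 125 CPM in SD and 36.9 CPM in SASD, beside 77.5 CPM in Con. Its 12 h difference was 1.47 ± 0.16 (SE, edgeR, adjusted p = 0.122, higher in 2 of 2 methods).

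The genes listed as cytosolic heat shock chaperones act outside the endoplasmic reticulum, and the list also held Hspd1, Hspe1 and Hsf1, which are not cytosolic chaperones. Of these genes 18 of 18 tested had a slope above 0 under SASD (background 46.7%). Their median was 0.15, against 0.12 for the 9 genes and -0.01 for all genes. Under SD 13 of 18 slopes were above 0, with a median of 0.04 against 0.07 for the 9 genes and -0.01 for all genes. In neither method was any of them called by edgeR. At an unadjusted p under 0.05 there were 11 of 18 under SASD (background 3.03%) and 0 of 18 under SD (background 10.4%).

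**Figure D4:**
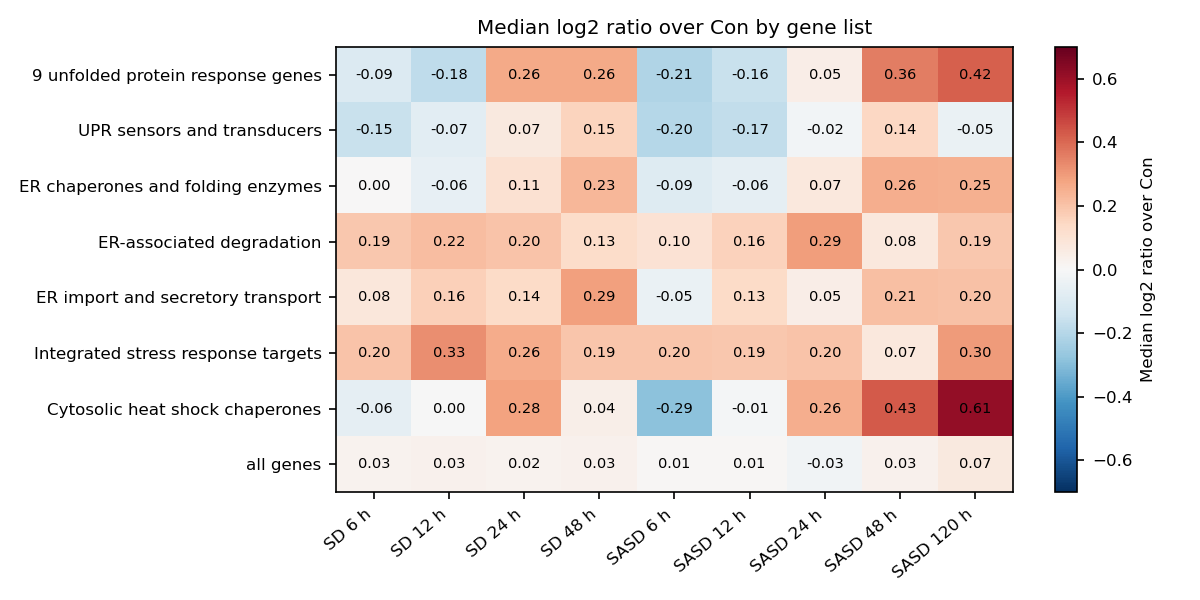
Median log2 ratio over Con for the 9 genes, 6 related gene lists and all genes (rows) in each SD and SASD library (columns), from CPM of single libraries, with the value printed in each cell. The median of the 9 genes lies below 0 at 6 and 12 h in both methods, although Dnajb9, Xbp1 and Atf4 are above Con there. It reaches 0.26 in SD 24 h and 0.42 in SASD 120 h, while the median of all genes stays between -0.03 and 0.07. Total-count scaling would lower the columns by 0.06 to 0.51.

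The genes whose pattern over the 10 libraries was most like the mean standardized level of the 9 were, among 9611 candidates whose mean count was 100 or more, Serp1, Fkbp2, Morf4l2, Mia2, Rtl5, Pdia3, Ugp2 and Lsp1. Pearson's r was 0.97 for Serp1 and 0.93 to 0.96 for the other 7, as a description over libraries that share depth and haemoglobin sets. Serp1, a small protein tied to the import channel, read 552 CPM in Con, 576, 564, 648 and 612 CPM in SD and 524, 546, 590, 661 and 690 CPM in SASD. Of the 9 genes themselves, each set against the mean of the other 8, Sdf2l1 was closest (r = 0.95), then Hspa5 (0.86), Hsp90b1 (0.76), Calr (0.73) and Xbp1 (0.53). Pdia4 (0.49), Dnajb9 (0.40) and Herpud1 (0.37) came next, and Atf4 had an r of -0.27.

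Xbp1 was set beside markers of the cells that blood could hold, with Xbp1 itself left out. The 11 other markers of plasma cells and plasmablasts summed to 586 to 636 CPM in SD, 604 to 711 CPM in SASD and 710 CPM in Con. Of the full list with Xbp1, 11 genes were tested. Among these, 2 had an SD minus SASD estimate above 0 (background 49.2%), and the median was -0.12. Of the defining genes of plasma cells, Tnfrsf17 was at 0 in SD 6 h, SD 48 h, SASD 24 h and SASD 48 h. Jchain read 12.0 CPM in Con, 7.26, 17.1, 13.1 and 5.89 CPM in SD at 6, 12, 24 and 48 h, and 15.3, 19.2, 5.97 and 5.21 CPM in SASD at these hours. The sum of the markers without Xbp1 was lowest in SD 24 h, the library in which Xbp1 was highest. Most of it there came from Pou2af1 at 264 CPM, Txndc5 at 125 CPM and Irf4 at 92.6 CPM. Pou2af1 and Irf4 are also expressed by B cells, so the sum does not follow plasma cells alone. The 10 B cell markers summed to 4283 to 5471 CPM in SD, 4970 to 6750 CPM in SASD and 5880 CPM in Con.

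Summed myeloid markers were, like Xbp1, higher in SD than in SASD at 12 and 24 h. The 14 mature neutrophil markers summed to 3350, 6448, 7942 and 12255 CPM in SD at 6, 12, 24 and 48 h. In SASD they summed to 2242 to 2989 CPM, and in Con to 2290 CPM. The neutrophil sum was highest in SD 48 h, where Xbp1 read 124 CPM. The 9 monocyte markers summed to 1973 CPM in Con, 2524, 2701, 5744 and 5671 CPM in SD and 3061, 1872, 3458, 4731 and 4270 CPM in SASD. This sum was highest in SD 24 h, the library in which Xbp1 was highest, but nearly as high in SD 48 h, where Xbp1 read 124 CPM. It was also higher in SASD 6 h than in SD 12 h, where Xbp1 read 86.9 and 157 CPM in that order. At 24 h, where Sdf2l1 and Xbp1 were both past 2-fold, monocyte markers were higher in SD and the 8 platelet markers lower, at 4287 CPM in SD and 10642 CPM in SASD. The part of any of these cell types in the levels of the 9 genes was not tested.

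**Figure D5:**
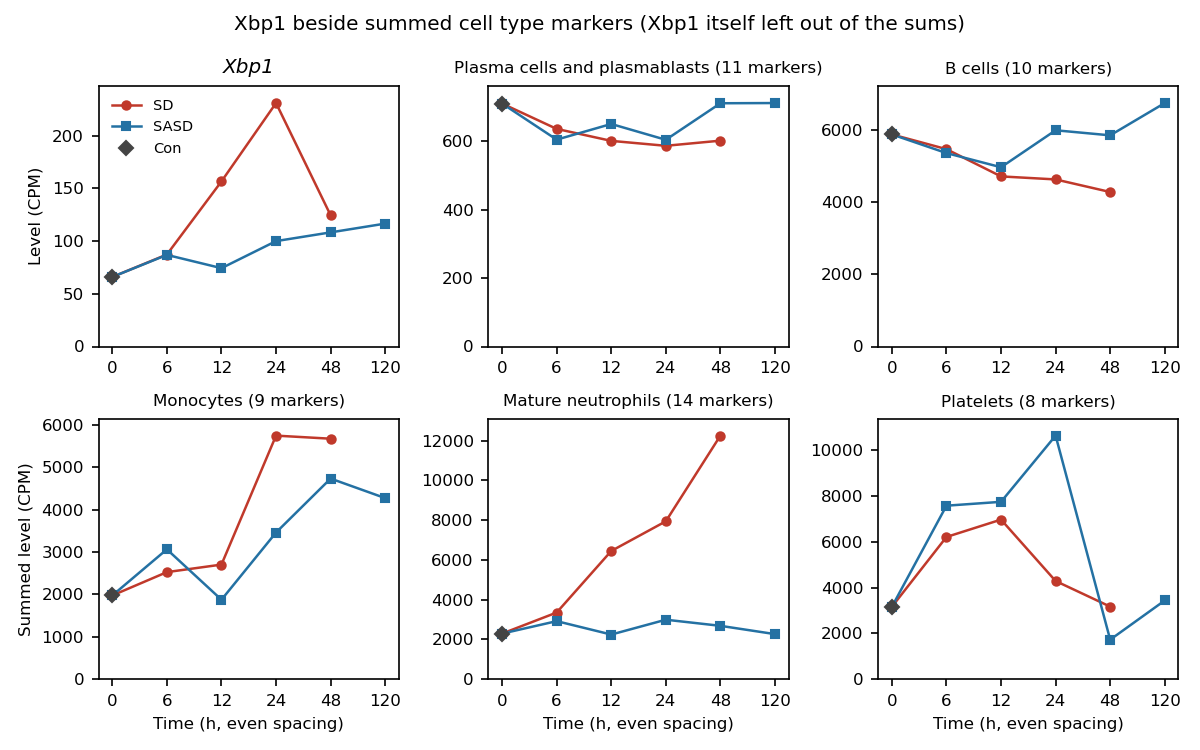
Xbp1 level (first panel, CPM) and summed marker levels of 5 cell types (other panels, CPM, Xbp1 left out) by time (x axis, hours with even spacing) in SD (red circles), SASD (blue squares) and Con (grey diamond), 1 library per point. Plasma cell markers stay between 586 and 711 CPM, and neutrophil markers are highest in SD 48 h, at 12255 CPM. Xbp1 and monocyte markers are both highest in SD 24 h, the latter at 5744 CPM with 5671 CPM in SD 48 h.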

How the data were processed

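The authors deposited raw counts of read pairs per gene for 10 libraries. Per the submitters' processing notes, reads were handled with Trimmomatic 0.39, STAR 2.7.9a and featureCounts 2.0.3 on mm10; per the file headers, exons were counted per gene with no strand option, and multi-mapping reads were not counted. Symbols came from GENCODE and RefSeq tables; 32158 of 32285 IDs had one. Ddit3, on the integrated stress response list, was not analysed here.

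Counts were tested with edgeR 4.0.16 (TMM scaling, quasi-likelihood test, mean count of at least 10, Benjamini-Hochberg over all genes tested, threshold 0.05; R 4.3.3) in 6 fits over the libraries of each comparison, and checked on simulated data with known changes. Of simulated 2-fold and 4-fold changes the SD slope fit recovered 15% and 85%, the SASD slope fit 4% and 56% and the slope difference 21% and 85%. The other fits recovered 71% to 94% and 99% to 100%. Whether these rates hold for the measured libraries was not tested. In the measured libraries the SD against SASD fit called 0 of 14 mature neutrophil markers. Their median estimate was 1.58 on the log2 scale, and 14 of 14 estimates were above 0. A count of 0 called, in the slope fits or in the other fits, therefore does not show that levels were unchanged. Alternatives used DESeq2 1.42.0 and limma 3.58.1, other scalings and left-out libraries. Single-library ratios needed a mean count of 25 in the pair and have exact binomial 95% intervals (scipy 1.17.1). In a 2-fold count, a prior count of 2 was added. Likeness used log2(CPM + 0.1). Sequence copies were sought with blastn 2.17.0 at 95% identity over 100 bases. The text names all 9 genes and, per pathway list, genes called or, failing that, those with the largest estimates, of which a selection is printed. Members and lists were chosen with earlier results of these data known.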

Additional observations from a re-analysis of the deposited data

How the results depend on the processing

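Each group held 1 library, so the replicate error of single values is unknown, and Sdf2l1, with 64 to 450 counts, was the least precise of the 9 genes. Libraries of the same hour were paired across the methods by the block for time; without it the SD minus SASD difference was 0.69 for Xbp1 and 0.47 for Sdf2l1, and 0 genes were called. Of 288 refits of single genes with another tool, scaling, filter or time term, 275 kept direction and side of the threshold, and of 342 that left out a time or a library 317 did. The test for time has no direction, so its refits were judged by the threshold alone. Genes called over the whole table numbered 0 for SD against SASD, but 389 with no count minimum (of which 1 was among the 9 genes) and 169 in DESeq2. For the SD slope they numbered 18, but 63 with no minimum, 456 in DESeq2, 69 in limma-voom, 0 with linear hours and 796 with a term for the haemoglobin set. For the slope difference they numbered 58, but 88 with no minimum, 272 in DESeq2, 122 in limma-voom, 6 with linear hours and 264 with the haemoglobin term. For time they numbered 137, but 1890 with no minimum (3 of the 9 genes) and 966 in DESeq2 (4 of the 9). For 12 h against 6 and 24 h they numbered 0, but 92 with no minimum and 14 in DESeq2. Leaving out 1 time or library moved these counts to 0 to 237 for SD against SASD, 0 to 511 for the SD slope, 0 to 1 for the SASD slope, 0 to 117 for the slope difference, 3 to 549 for time, 0 to 75 for 12 h against 6 and 24 h, and the count among the 9 genes for the SD slope to 0 to 1. Small estimates changed sign: on the log2 scale the SD minus SASD difference of Hsp90b1, 0.00045, was -0.0044 with DESeq2 size factors, -0.0046 in DESeq2 and -0.023 without the time block, the SD slope of Atf4 was -0.0081 with linear hours, and its SASD slope was -0.0020 with the haemoglobin term. The SD minus SASD difference ran over -0.10 to 0.14 for Hsp90b1, -0.090 to 0.057 for Calr, -0.076 to 0.029 for Pdia4 when each time was left out. The SD slope ran over -0.0088 to 0.23 for Hsp90b1, -0.070 to 0.065 for Pdia4, -0.075 to 0.12 for Atf4 when each library was left out. The SASD slope ran over -0.0043 to 0.073 for Pdia4, -0.019 to 0.064 for Herpud1, -0.028 to 0.067 for Atf4 when each library was left out. The slope difference ran over -0.038 to 0.065 for Hspa5, -0.078 to 0.083 for Hsp90b1, -0.072 to 0.015 for Calr, -0.037 to 0.032 for Pdia4, -0.10 to 0.020 for Atf4 when each library was left out. The 12 h difference ran over -0.23 to 0.10 for Pdia4, -0.42 to 0.20 for Xbp1, -0.030 to 0.12 for Atf4 when each library was left out. With total counts as the scale, the ratio of Xbp1 in SASD 12 h over Con was 0.911, where it was 1.13 with TMM, since that scale lowers log2 ratios over Con by 0.058 to 0.51. The causes of these changes were not tested.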
